A study of Bos taurus with 18 samples.

Results

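The plasma miRNAs *bta-miR-223*, *bta-miR-146a*, *bta-miR-146b* and *bta-miR-155*, known from myeloid cells and inflammation, were followed in Japanese Black cattle during fattening. They were chosen by name, as 4 of the 1071 miRNAs counted, and all 4 passed the abundance filter in both plasma fractions. Plasma was taken from the jugular veins of 3 Japanese Black steers at about 20, 25 and 30 months of age, which gave 9 plasma samples. Each sample was split into an exosomal fraction (EX), the RNA inside small vesicles released by cells, and a non-exosomal free circulating fraction (FC), the RNA bound to plasma proteins, and small RNA-seq was run on both. There were thus 6 groups of 3 libraries, EX and FC at 20, 25 and 30 months, with the same 3 steers in each group. Steers are numbered by the replicate number of the labels, assumed to mark the same animal throughout. All 3 were castrated males on 1 feeding system, no treatment was applied, and age, sampling date and time on feed cannot be told apart. The tissue is cell-free plasma, so the blood cells that release these miRNAs were not measured, and fewer cells of a type cannot be told apart from less RNA released per cell.

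A miRNA pairs through its seed, the bases at positions 2 to 8 from its 5′ end, with sites in target mRNAs and lowers their output. *miR-223* is made mainly by granulocytes, monocytes and the platelet lineage, where it restrains granulocyte production and inflammasome activity. *miR-146a* and *miR-146b* are induced by Toll-like receptor and NF-kappaB signalling and act as brakes on it, through the adaptors TRAF6 and IRAK1. *miR-155* is induced by the same signals in macrophages and in activated B and T lymphocytes, and favours inflammation through targets such as SOCS1.

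The mature sequences are shown because the pair *bta-miR-146a* and *bta-miR-146b* shares reads, which sets how well each can be measured. They are those of the deposited table, 5′ to 3′, with the seed in capitals.
bta-miR-223: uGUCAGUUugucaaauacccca
bta-miR-155: uUAAUGCUaaucgugauaggggu
bta-miR-146a: uGAGAACUgaauuccauagguugu
bta-miR-146b: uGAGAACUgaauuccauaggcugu
*bta-miR-146a* and *bta-miR-146b* have the same seed and differ by 1 of 24 bases, the substitution U21C, counted from the 5′ end with the base of *bta-miR-146a* first. No other miRNA of the table has their seed, and the seeds of *bta-miR-223* and *bta-miR-155* occur in 0 others of the 1071. In 11 of the 18 libraries the counts of *bta-miR-146a* and *bta-miR-146b* were not whole numbers, while their sum was whole in all 18, so some reads had been divided between them. The counts of *bta-miR-223* and *bta-miR-155* were whole in all 18 libraries. In the RefSeq annotation of ARS-UCD2.0, another build than the one the reads were mapped to, *MIR223* lies inside *VSIG4* and a lncRNA gene, *MIR155* between *MRPL39* and *NCAM2*, *MIR146A* between *PTTG1* and *ATP10B*, and *MIR146B* between *CUEDC2* and *C26H10orf95*.

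The libraries held 991354 to 2778618 counts in EX and 3615234 to 12088735 in FC, and abundances are given as CPM-normalized counts (CPM, counts scaled to the same library total). The most common count in a library was well above 1. It was 9.28 to 26 in EX at 20 and 25 months and 38 to 81 at 30 months, against 4.63 to 18 and 18 to 27.5 in FC. A miRNA near this count may therefore rest on few independent molecules, which were not counted. The plasma of steer 3 at 25 months stood apart in both fractions, with the lowest TMM factors (0.743 in EX and 0.734 in FC, against up to 1.24 and 1.17), and the results it moved by more than 1.5 times, or whose call it decided, are also given without it.

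The 4 miRNAs differed by orders of magnitude in abundance. Averaged over the 9 libraries of a fraction, the level of *bta-miR-223* (mean ± SD, n = 9) was 29588 ± 12163 CPM for EX and 45350 ± 16617 CPM for FC, ranking 9 among 345 selected miRNAs in EX and 6 among 358 in FC. *bta-miR-155* held 1675 ± 695 and 1521 ± 598 CPM. *bta-miR-146a* held 983 ± 293 and 1323 ± 524 CPM. *bta-miR-146b* was the scarcest, with 121 ± 83.4 CPM in EX and 77.3 ± 20.8 CPM in FC. The order *bta-miR-223* above *bta-miR-155* and *bta-miR-146a* above *bta-miR-146b* held in 18 of 18 libraries, whereas *bta-miR-155* and *bta-miR-146a* did not stand in a fixed order. *bta-miR-155* exceeded *bta-miR-146a* in 8 of 9 EX libraries and 6 of 9 FC libraries, by ratios of 0.704 to 2.796 and 0.445 to 2.39. Their ranges overlapped at 30 months in EX and at every age in FC.

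**Figure D1:**
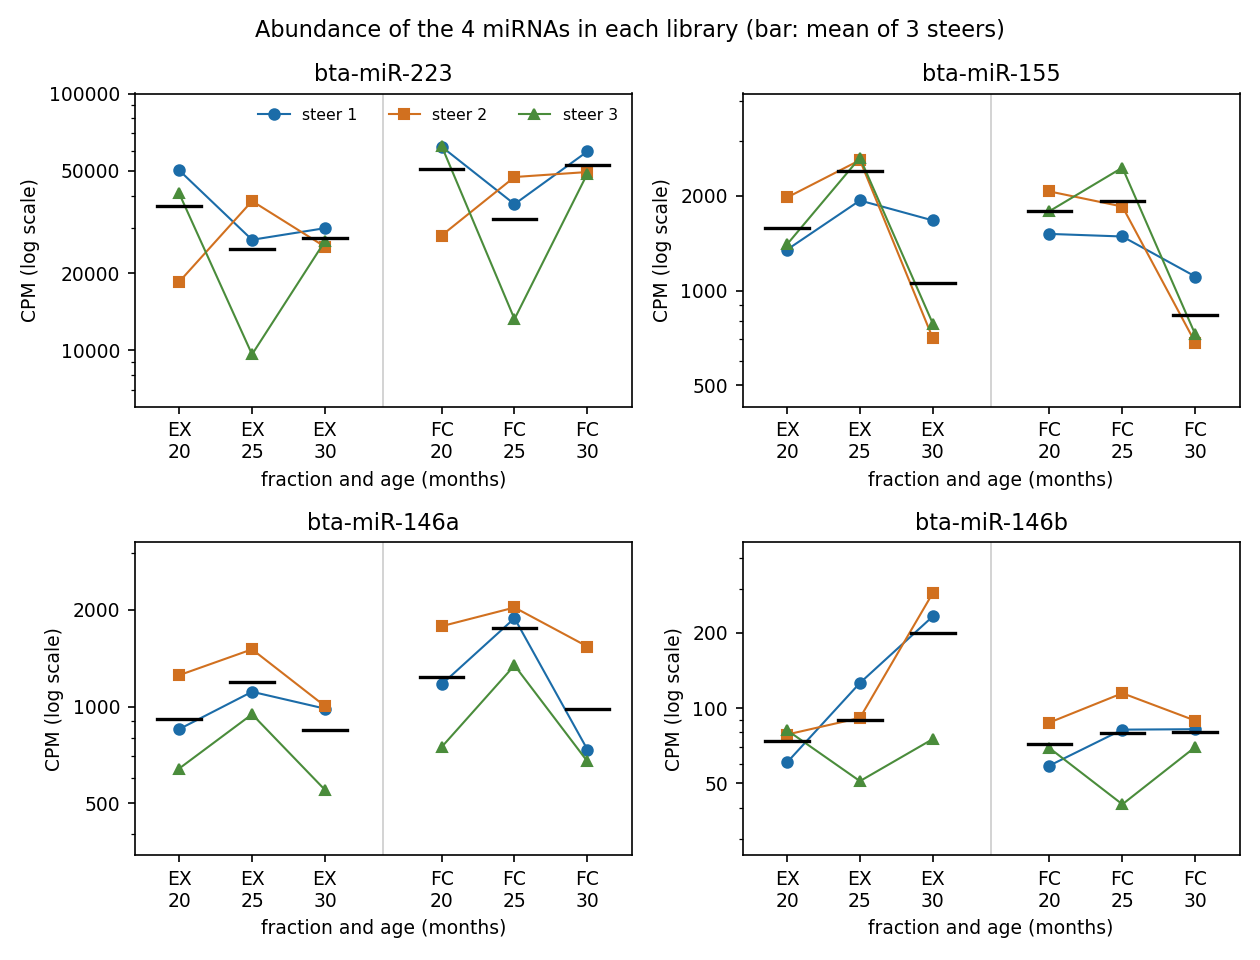
CPM-normalized counts of the 4 miRNAs in each library on a log scale, by fraction and age in months. Points of 1 steer are joined, and black bars are means of 3 steers. *bta-miR-155* is lower at 30 than at 25 months in every steer, and *bta-miR-223* of steer 3 dips at 25 months in both fractions, to 9652 CPM in EX and 13252 CPM in FC.

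The first comparison asked how abundance changed between 25 and 30 months, the last phase of fattening. *bta-miR-155* was lower at 30 months in both fractions, 3.19-fold in EX and 2.51-fold in FC, and *bta-miR-146a* was lower in FC, 2.10-fold. *bta-miR-223* and *bta-miR-146b* did not pass the test in either fraction. A miRNA was called a DE-miRNA (differentially existed miRNA) at a false discovery rate (FDR) < 0.05 and |log2 fold change| > 1 in edgeR's quasi-likelihood test with steer as a block. By this rule 1 of the 4 was called in EX, where 14.2% of the 345 miRNAs tested were called and 10.4% were called lower. In FC 2 of the 4 were called, where 15.6% of 358 were called and 10.1% were called lower.

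*bta-miR-155* in EX stood at 1935, 2599 and 2645 CPM in steers 1, 2 and 3 at 25 months, and at 1672, 706 and 786 CPM at 30 months. All 3 libraries at 30 months were below all 3 at 25 months, as for 19.4% of the miRNAs tested, but steer 1 fell by little, 1.16-fold, against 3.68-fold in steer 2 and 3.37-fold in steer 3. The fitted log2 fold change was −1.67 (standard error 0.45, 95% interval −2.71 to −0.63, FDR 0.0413). The FC levels were 1487, 1851 and 2461 CPM at 25 months and 1109, 684 and 726 CPM at 30 months. The groups again did not overlap, as for 21.8% of miRNAs, and steer 1 again moved least, 1.34-fold against 2.71-fold and 3.39-fold. The log2 fold change in FC was −1.33 (standard error 0.38, 95% interval −2.19 to −0.47, FDR 0.0419). Both FDRs lie close to the threshold, and the EX call also ended with DESeq2 size factors (FDR 0.0578), library totals (0.0661), no filter on low counts (0.0562) and CPM > 1 in 3 libraries (0.0543), while the FC call ended with the counts as deposited (0.0833). Without steer 2 the FDR was 0.190 in EX and 0.0874 in FC (log2 fold changes −1.45 and −1.22), without steer 3 it was 0.287 and 0.235 (−1.25 and −0.83), and without steer 1 it was 0.0282 in EX (log2 fold change −2.42) and 0.0668 in FC. Without the plasma of steer 3 at 25 months the EX FDR was 0.146 (−1.31) and the FC FDR 0.142 (−0.87). Over the whole table, 18, 0 and 1 of 345 miRNAs were called in EX without steers 1, 2 and 3, in place of 49. In FC 1, 54 and 1 of 358 were called, in place of 56. Without the plasma of steer 3 at 25 months the calls were 24 in EX and 20 in FC. In FC without steer 2 the table thus kept nearly all its calls, while *bta-miR-155* lost its own. The sign of *bta-miR-155* was negative in each of these smaller sets.

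*bta-miR-146a*, the brake on Toll-like receptor signalling, fell in FC from 1884, 2035 and 1344 CPM at 25 months to 734, 1538 and 674 CPM at 30 months. It was lower at 30 months in 3 of 3 steers, but the groups overlapped, since steer 2 at 30 months exceeded steer 3 at 25 months. The log2 fold change was −1.07 (standard error 0.29, 95% interval −1.72 to −0.42, FDR 0.0346). The FDR was 0.182 without steer 1, 0.135 without steer 3 and 0.110 without the plasma of steer 3 at 25 months, with log2 fold changes of −0.94, −0.85 and −0.79, in the same smaller sets in which 1, 1 and 20 of 358 miRNAs were called. The call was also lost without the steer block (FDR 0.128) and with the counts as deposited (0.0681), and with library totals it fell short of the fold threshold. In EX the values were 1112, 1508 and 946 CPM at 25 months and 985, 1003 and 550 CPM at 30 months. The EX log2 fold change was −0.97 (standard error 0.29, 95% interval −1.63 to −0.31, FDR 0.0561), which is on the other side of both thresholds by a small margin. A difference between the fractions was not shown: the EX change minus the FC change was 0.16 (95% interval −0.44 to 0.77, FDR 0.731), and it turned to −0.36 without steer 1.

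*bta-miR-223*, the granulocyte and monocyte miRNA, stood in EX at 26960, 38157 and 9652 CPM at 25 months and at 29918, 25337 and 26625 CPM at 30 months. The 30 months values lay inside the range at 25 months, and only steer 2 was lower at 30 months in CPM. The log2 fold change was −0.23 (95% interval −1.24 to 0.79, FDR 0.797), and it became 0.19 when libraries were scaled by their totals alone. Without the plasma of steer 3 at 25 months it was −0.68, and without steer 2 it was 0.25, neither called. In FC the values were 37101, 47324 and 13252 CPM at 25 months and 59516, 49492 and 48799 CPM at 30 months. Here all 3 libraries at 30 months exceeded all 3 at 25 months, as for 20.7% of miRNAs, by as little as 1.05-fold in steer 2 and as much as 3.68-fold in steer 3. The fit gave 0.67 (standard error 0.39, 95% interval −0.22 to 1.56, FDR 0.243), so the rise was not separable from the spread of changes between steers. It was 0.28 (FDR 0.622) without the plasma of steer 3 at 25 months, 0.38 without steer 3 and 1.13 without steer 2.

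*bta-miR-146b* stood in EX at 126, 91.4 and 51.1 CPM at 25 months and at 233, 289 and 75.3 CPM at 30 months. It was higher at 30 months in 3 of 3 steers, 1.85-fold, 3.16-fold and 1.47-fold, but steer 3 at 30 months lay inside the range at 25 months. The log2 fold change was 0.64 (standard error 0.67, 95% interval −0.90 to 2.18, FDR 0.597), and it was 0.28 without steer 2 and 1.09 with library totals alone. The counts behind the 30 months values were 463.5, 286.5 and 81.5, only 5.72, 3.87 and 2.14 times the most common count of their libraries, so few molecules may stand behind each. In FC the values were 82.1, 115 and 41.3 CPM at 25 months and 82.4, 89.2 and 69.9 CPM at 30 months. They did not separate the ages (log2 fold change 0.01, 95% interval −0.68 to 0.70, FDR 0.973, and −0.15 without the plasma of steer 3 at 25 months).

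**Figure D2:**
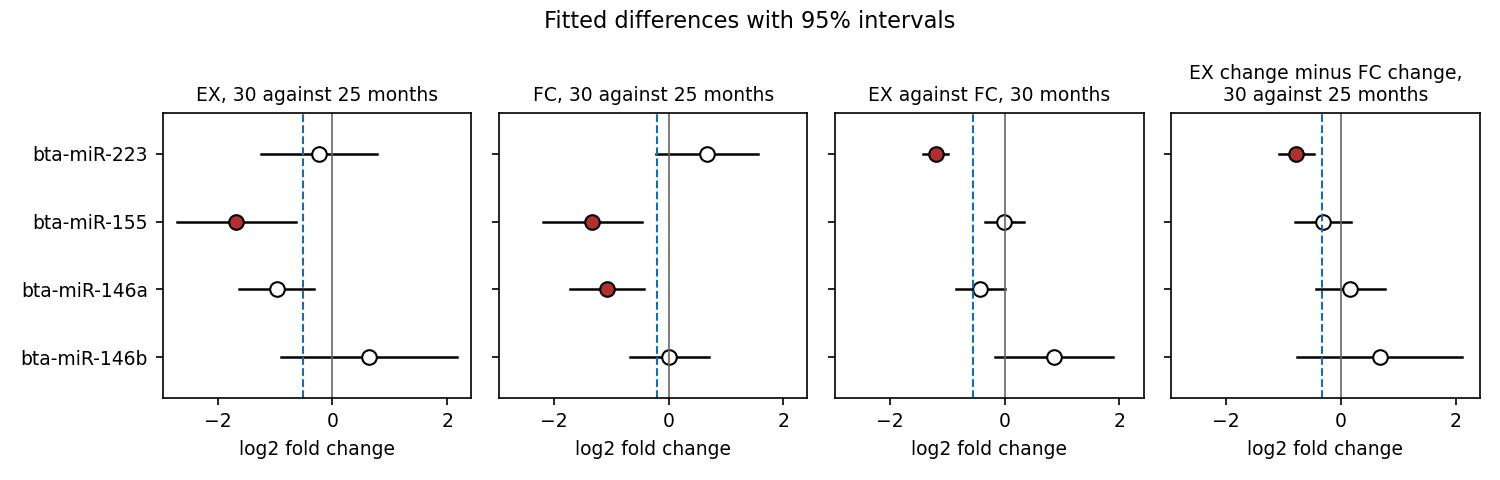
Log2 fold changes of the 4 miRNAs from edgeR (circles) with 95% intervals (lines) in 4 comparisons. Filled circles passed the thresholds of the comparison, and the dashed line is the median of all miRNAs tested. *bta-miR-155* lies left of 0 in both fractions, and *bta-miR-223* is the only one of the 4 called between fractions at 30 months, at −1.20.

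The whole table moved too, and the size of that shift depends on the scaling. The median log2 fold change from 25 to 30 months was −0.51 over the 345 miRNAs in EX and −0.20 over the 358 in FC. The medians became −0.04 and −0.08 when only library totals were used. *bta-miR-155* in EX then gave −1.23 (FDR 0.0661) and in FC −1.19 (FDR 0.0369), lower than the median in both fractions under both scalings. *bta-miR-146a* in FC gave −0.92 (FDR 0.0421), which is past the FDR threshold and short of the fold threshold. In EX it gave −0.51 (FDR 0.193), in place of −0.97.

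Against 20 months the picture was weaker. By edgeR none of the 4 was called at 30 months in EX, where 13.3% of miRNAs were called, or in FC, where 6.98% were. Among the members, 0 in EX and 1 in FC had an unadjusted p < 0.05, and the likelihood ratio test and DESeq2 each called 0 in EX and 1 in FC. Of all miRNAs tested, 106 of 345 and 104 of 358 had an unadjusted p < 0.05, and these tools called 83 and 78 in EX and 53 and 51 in FC. That miRNA was *bta-miR-155*, which had stood at 1515, 2067 and 1790 CPM in FC at 20 months. Its 3 FC libraries at 30 months were all below these, as for 22.1% of miRNAs (log2 fold change −1.08, 95% interval −1.93 to −0.23, FDR 0.102). In EX it had stood at 1350, 1978 and 1403 CPM at 20 months, and steer 1 at 30 months lay above the lower pair (log2 fold change −0.97, 95% interval −1.999 to 0.06, FDR 0.193). This value was −0.40 without steer 2 and −1.60 without steer 1. In FC the FDR became 0.0499 without the plasma of steer 3 at 25 months.

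*bta-miR-223* at 20 months stood at 50282, 18489 and 40876 CPM in EX and at 62126, 28014 and 62526 CPM in FC. Steer 2 was low and the other two were high, the reverse of 25 months, when steer 2 was highest in both fractions. Against 20 months the log2 fold change at 30 months was −0.73 in EX (95% interval −1.73 to 0.28, FDR 0.323) and 0.08 in FC (−0.80 to 0.96, FDR 0.926). Its SD over steers was 16332 CPM at 20 months, 14361 at 25 and 2363 at 30 months in EX, and 19811, 17484 and 5997 CPM in FC. The 3 steers were thus closest to each other at 30 months in both fractions, a difference in spread that was not tested. Much of the earlier spread came from steer 2 at 20 months and from steer 3 at 25 months, at 9652 CPM in EX and 13252 CPM in FC. In FC at 20 months the other 2 steers lay close together.

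Between 20 and 25 months none of the 4 was called in either fraction, where 0.29% of miRNAs were called in EX and 0% in FC by edgeR. The likelihood ratio test and DESeq2 called none of the 4 either, and 0 in EX and 1 in FC had an unadjusted p < 0.05, against 8 of 345 and 13 of 358 miRNAs. The latter was *bta-miR-146a*, which had stood at 1172, 1779 and 747 CPM in FC at 20 months and was higher at 25 months in 3 of 3 steers (log2 fold change 0.72, 95% interval 0.08 to 1.37, unadjusted p 0.0322, FDR 0.999). In EX it had stood at 850, 1252 and 641 CPM at 20 months, and was also higher at 25 months in 3 of 3 steers (0.51, 95% interval −0.14 to 1.17, FDR 0.997). Without the plasma of steer 3 at 25 months these values were 0.44 in FC and 0.27 in EX, and without steer 3 they were 0.39 and 0.30. *bta-miR-155* in EX was likewise higher at 25 months in 3 of 3 steers (0.70, 95% interval −0.29 to 1.70, FDR 0.997), with 0.33 when the plasma of steer 3 at 25 months was left out. *bta-miR-146b* stood at 60.7, 78.5 and 81.7 CPM in EX and at 58.9, 87.6 and 69.3 CPM in FC at 20 months, inside the range of its 25 months values in each fraction.

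The second comparison set the fractions of the same plasma against each other. *bta-miR-223* was the one of the 4 that differed, with more in FC in 9 of 9 plasma samples and the widest gap at 30 months. The FC to EX ratio of its CPM was 1.24, 1.52 and 1.53 in steers 1, 2 and 3 at 20 months, then 1.38, 1.24 and 1.37 for the 25 months samples, and finally 1.99, 1.95 and 1.83 for those of 30 months. The ratios at 30 months all exceeded those at 20 and 25 months. How many of all miRNAs share this order, or lie higher in FC in every sample, was not counted. The median EX to FC log2 fold change of all miRNAs also moved, from −0.14 at 20 months to −0.34 at 25 and −0.55 at 30 months. In the fit, with the plasma sample as a block, the EX to FC log2 fold change at 30 months was −1.20 (standard error 0.10, 95% interval −1.42 to −0.98, FDR 3.67e-05), the only call among the 4 at that age, where 13.6% of 330 miRNAs were called and 10.6% were called lower in EX. The EX and FC libraries at 30 months did not overlap, as for 16.7% of miRNAs lower in EX.

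At 20 months the log2 fold change of *bta-miR-223* was −0.55 (95% interval −0.77 to −0.33, FDR 0.00703) and at 25 months −0.43 (−0.64 to −0.21, FDR 0.0239). Both passed the FDR threshold, as did 9.39% and 6.97% of miRNAs, but not the fold threshold, by which 2.12% were called at each age and 0 of the 4. The likelihood ratio test and DESeq2 also called 0 of the 4 at these ages, and 2 of the 4, *bta-miR-223* and *bta-miR-146a*, had an unadjusted p < 0.05 at each, as did 60 of 330 miRNAs at 20 months and 54 at 25 months. The FDR at 20 months was 0.0946 without steer 2, and at 25 months it was 0.123, 0.220 and 0.119 without steers 1, 2 and 3, and 0.148 without the plasma of steer 3 at that age. Without the plasma block the FDRs were 0.859 at 20 months and 0.980 at 25 months, so neither passed.

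The median of all 330 miRNAs also lay below 0 at 30 months, at −0.55, and at −0.30 when only library totals were used. With totals alone *bta-miR-223* gave −0.94 (FDR 0.000121), short of the fold threshold and still below the median. Leaving out any 1 steer gave −1.22 to −1.46 at 30 months and changed no call. Without the plasma block the FDR at 30 months was 0.0376.

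The change with age was then compared between the fractions. The EX change of *bta-miR-223* minus its FC change was −0.77 from 25 to 30 months (standard error 0.14, 95% interval −1.08 to −0.47, FDR 0.0157) and −0.65 from 20 to 30 months (standard error 0.14, 95% interval −0.96 to −0.35, FDR 0.0253). The sign was negative in 3 of 3 steers in both, and 6.97% and 9.09% of miRNAs passed this test. Without the plasma block the FDRs were 0.558 and 0.615, so neither passed. The first was lost without steer 2 (FDR 0.0753) and the second without steer 1 (0.0722) or steer 2 (0.0617). Without the plasma of steer 3 at 25 months the FDRs were 0.0574 and 0.0532, and without steer 3 the second difference was −1.01. Without steers 1, 2 and 3 the whole table gave 1, 0 and 20 passes of 330 for the first, in place of 23, and 0, 0 and 29 for the second, in place of 30.

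**Figure D3:**
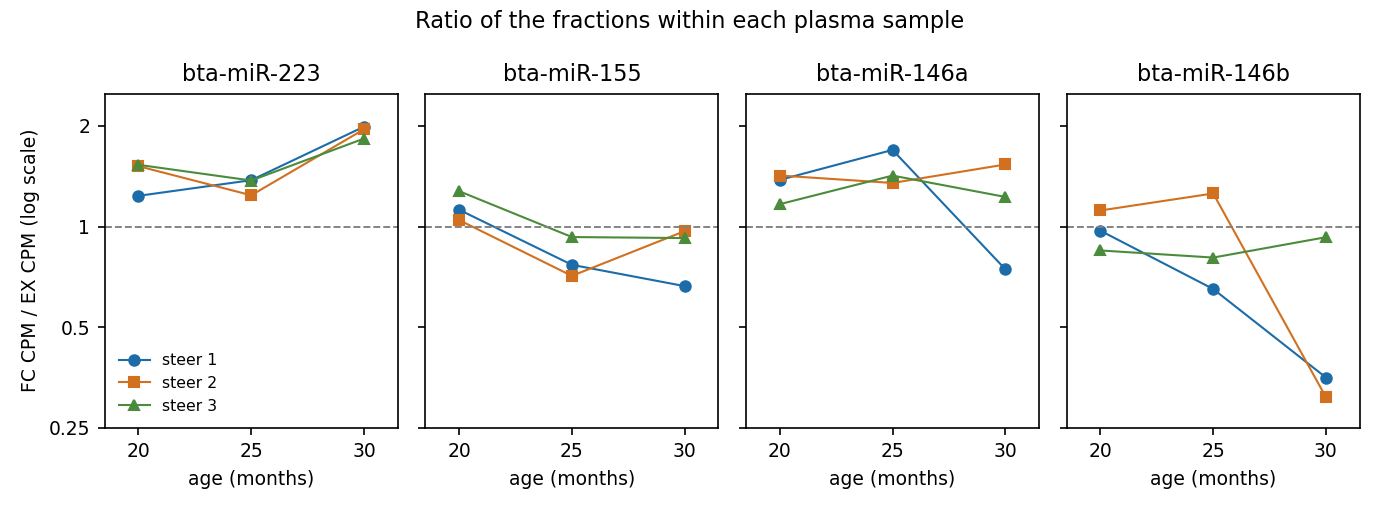
Ratio of FC to EX CPM within each plasma sample, on a log scale, against age in months, with points of 1 steer joined. *bta-miR-223* lies above 1 in all 9 samples and reaches 1.83 to 1.99 at 30 months, while *bta-miR-155* and *bta-miR-146b* lie on both sides of 1.

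*bta-miR-146a* was higher in FC in 8 of 9 plasma samples, by ratios of 1.17 to 1.70, with the exception of steer 1 at 30 months at 0.746. The EX to FC log2 fold change was −0.44 at 20 months (95% interval −0.87 to −0.02, FDR 0.248), −0.59 at 25 months (−1.01 to −0.16, FDR 0.144) and −0.42 at 30 months (−0.85 to 0.01, FDR 0.138). None passed the FDR threshold in edgeR. Over the alternatives the FDR ranged from 0.0509 to 0.951 at 20 months, from 0.0276 to 0.980 at 25 months and from 0.0345 to 0.553 at 30 months. The lowest at 30 months was that without steer 1, where the log2 fold change was −0.75.

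*bta-miR-155* showed no steady side. It was higher in FC in 3 of 3 samples at 20 months, by 1.05 to 1.28, and lower in FC in all 6 later samples, with ratios of 0.663 to 0.969. The EX to FC log2 fold changes were −0.24 at 20 months (95% interval −0.58 to 0.10, FDR 0.526), 0.31 at 25 months (−0.03 to 0.65, FDR 0.377) and −0.01 at 30 months (−0.35 to 0.34, FDR 0.979). The last has the opposite sign to the CPM ratios of all 3 steers, and became 0.25 with library totals alone. It changed sign under other alternatives too, within a range of −0.22 to 0.25, so its direction is not settled. Its fall from 25 to 30 months was not shown to differ between the fractions (EX change minus FC change −0.31, 95% interval −0.79 to 0.17, FDR 0.415). Over the alternatives this difference ranged from −0.64 to −0.07, with a lowest FDR of 0.0894.

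*bta-miR-146b* was higher in EX in 3 of 3 samples at 30 months, by 2.83-fold in steer 1, 3.24-fold in steer 2 and 1.08-fold in steer 3. The EX to FC log2 fold change was 0.86 (standard error 0.46, 95% interval −0.17 to 1.89, FDR 0.200), after 0.00 at 20 months (−1.002 to 0.99, FDR 0.993) and 0.18 at 25 months (−0.82 to 1.19, FDR 0.912). The difference between the changes from 25 to 30 months was 0.68 (95% interval −0.76 to 2.12, FDR 0.559). Without steer 2 the values were 0.41 for the EX to FC log2 fold change at 30 months and −0.16 for the difference between the changes. At 25 months the EX to FC value was 0.12 without the plasma of steer 3.

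Within the pair of near-identical sequences, *bta-miR-146b* made up 5.12 to 11.3% of the counts in EX at 20 and 25 months and 12.0 to 22.4% at 30 months. In FC its share was 2.98 to 8.48% at 20 and 25 months and 5.48 to 10.1% at 30 months. The EX shares at 30 months lay above the earlier ones in all 3 libraries, at 19.1% in steer 1, 22.4% in steer 2 and 12.0% in steer 3. Since reads were divided between the pair by the counting, part of the *bta-miR-146b* counts may be reads of *bta-miR-146a*, and this share is a description with no test.

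**Figure D4:**
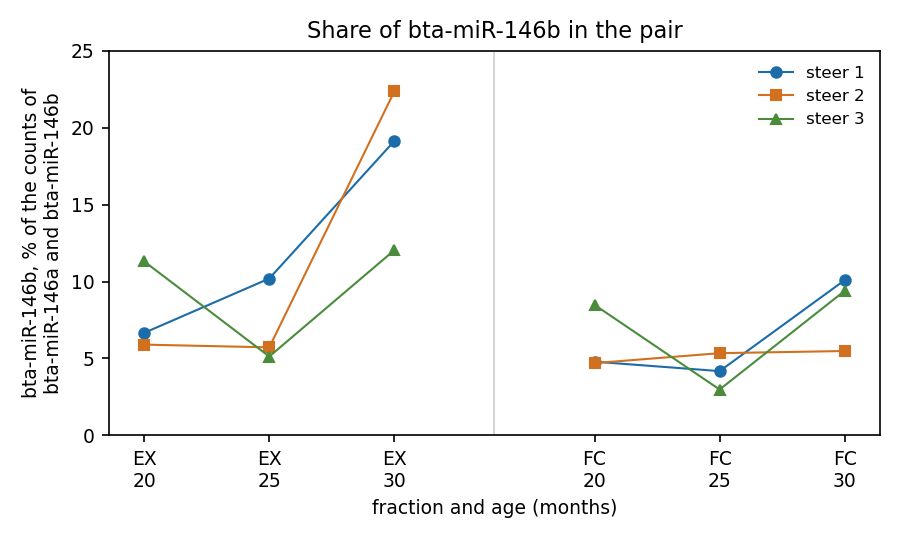
Counts of *bta-miR-146b* as a percent of the counts of *bta-miR-146a* and *bta-miR-146b* together, by fraction and age in months, with points of 1 steer joined. The 3 EX libraries at 30 months lie at 12.0 to 22.4%, above the 6 earlier EX libraries.

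Other miRNAs of the same cells and pathways were read beside the 4, from lists of known names. Of 8 other myeloid or pan-leukocyte miRNAs, 6 were tested in EX and 7 in FC from 25 to 30 months, and 2 were called lower in each fraction, against 10.4% of all miRNAs called lower in EX and 10.1% in FC. *bta-miR-142-3p*, a miRNA of all blood cell lineages, was called in both, with log2 fold changes of −2.34 in EX and −2.44 in FC. *bta-miR-142-5p*, from the same hairpin, was called in EX at −1.96, and *bta-miR-424-5p* in FC at −1.65. *bta-miR-23a*, *bta-miR-24-3p* and *bta-miR-27a-3p* were called in neither fraction, at −0.64, −0.13 and 0.14 in EX and −0.64, −0.21 and 0.20 in FC. In EX *bta-miR-424-5p* was at 0.53 (FDR 0.776), and in FC *bta-miR-142-5p* was not called (FDR 0.0558). The list's median log2 fold change was −0.38 in EX and −1.20 in FC, against −0.51 and −0.20 over all miRNAs. Its summed level went from 60344 to 71552 CPM at 25 months to 36502 to 40445 CPM at 30 months in EX, and from 63529 to 84855 CPM to 38074 to 43911 CPM in FC. Most of this fall lay in *bta-miR-142-5p*, with means of 41763 and 14764 CPM in EX and 46850 and 22161 CPM in FC. *bta-miR-503-5p* of this list was at 0 in all EX libraries.

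Of 10 other miRNAs induced by Toll-like receptor and NF-kappaB signalling, 8 were tested in EX and 1 was called lower, and 9 were tested in FC and 1 was called higher. Over all miRNAs 10.4% were called lower in EX and 5.59% higher in FC, so these counts are near the background. The former was *bta-miR-132*, which stood at 32.0 to 71.8 CPM in EX at 25 months and was at 0 in all 3 EX libraries at 30 months, where 1 most common count equals 35.1 to 74.6 CPM. The latter was *bta-miR-21-3p*, the passenger strand of *miR-21*, with a log2 fold change of 1.32. The list's median was −0.06 in EX and 0.54 in FC.

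Lymphocyte markers were lower beside *bta-miR-155*. Of 4 lymphocyte miRNAs, 3 were called lower from 25 to 30 months in EX and 4 in FC, with medians of −2.34 and −1.91, against 10.4% and 10.1% of all miRNAs called lower. The one not called in EX was *bta-miR-181b*, with a log2 fold change of 0.31 (FDR 0.862) and mean levels of 5563 CPM at 25 months and 10338 CPM at 30 months. *bta-miR-150*, a miRNA of mature lymphocytes, had a log2 fold change of −4.06 in EX and −3.38 in FC. The summed level of this list went from 120868 to 330790 CPM at 25 months to 28372 to 38300 CPM at 30 months in EX, and from 82633 to 233604 CPM to 15245 to 27650 CPM in FC, with none of its 4 markers at 0 in either group. Lymphocytes also make *miR-155*, and the part of this list in the fall of *bta-miR-155* was not tested.

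The other lists were those of red cells, platelets and vessel wall, liver and muscle. The median log2 fold changes were −1.76 in EX and −0.56 in FC for red cells, −0.05 and −0.06 for platelets and vessel wall, and 1.19 and 0.86 for muscle, and the counts called stand against the same 10.4% and 10.1% called lower over all miRNAs. For red cells 1 of 3 was called lower in EX, *bta-miR-451* at −2.20, and 0 of 3 in FC by edgeR (1 at an unadjusted p < 0.05, and 1 by the likelihood ratio test and by DESeq2), with summed levels of 28558 to 92244 CPM at 25 months and 34776 to 54074 CPM at 30 months in EX. *bta-miR-486*, the most abundant of them at 30 months, was not called, at −0.04 in EX and 0.41 in FC. The red cell sums in FC were 18948 to 46802 CPM and 21521 to 34381 CPM. For platelets and vessel wall 1 of 4 was called lower in each fraction, *bta-miR-197*. Their sums were 17774 to 31156 CPM and 26334 to 40780 CPM in EX, and 12409 to 33636 CPM and 17989 to 30596 CPM in FC. The red cell and platelet sums overlapped between the ages in both fractions, unlike those of the lymphocyte and myeloid lists, and their part in the levels of *bta-miR-223* was not tested. For liver 0 of 2 were called in EX by edgeR (0 at an unadjusted p < 0.05, 0 by the likelihood ratio test and 1 by DESeq2) and 1 of 2 was called lower in FC, *bta-miR-885*, which stood at 19.8 to 25.9 CPM at 25 months and 0 to 0.526 CPM at 30 months. *bta-miR-122*, the main miRNA of hepatocytes, had the opposite sign and was not called, with log2 fold changes of 1.04 in EX (FDR 0.166) and 0.72 in FC (FDR 0.287). It made up nearly all of the liver sums, which were 12268 to 73054 CPM at 25 months and 35472 to 108600 CPM at 30 months in EX, and 18960 to 75397 CPM and 23010 to 97366 CPM in FC, overlapping in both. For muscle 0 of 3 tested were called in either fraction by edgeR (0 in EX and 1 in FC at an unadjusted p < 0.05, and 0 in EX and 1 in FC by the likelihood ratio test and by DESeq2).

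Finally, the miRNAs with the most similar pattern to each of the 4 were found, as the smallest root mean square difference of log2(CPM + 1) over the 9 libraries of a fraction after centring. *bta-miR-155* was most like *bta-miR-26a* in both fractions, with differences of 0.26 in EX and 0.17 in FC, against medians over all miRNAs of 1.42 and 0.90. *bta-let-7g* followed in both, as the last of the 3 nearest. *bta-miR-142-5p* was second in FC, at 0.21. *bta-miR-223* was most like *bta-miR-221*, *bta-miR-145* and *bta-miR-24-3p* in EX (0.31 to 0.36), and like *bta-miR-7861*, *bta-miR-21-3p* and *bta-miR-2299-3p* in FC (0.27 to 0.31), with no name in common. *bta-miR-146a* was nearest to *bta-miR-92b*, *bta-let-7a-5p* and *bta-let-7g* in EX (0.37 to 0.39) and to *bta-miR-149-5p*, *bta-miR-450b* and *bta-miR-29b* in FC (0.36 to 0.38). For *bta-miR-146a* in EX the nearest difference, 0.37, was hardly smaller than its own spread about its mean, 0.43, so these neighbours say little. *bta-miR-146b* was nearest to *bta-let-7b*, *bta-miR-382* and *bta-miR-7* in EX (0.36 to 0.45) and to *bta-miR-195*, *bta-miR-143* and *bta-miR-21-5p* in FC (0.20 to 0.27). The 4 miRNAs themselves were left out of this search, so their likeness to each other was not measured by it.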

How the data were processed

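Small RNA-seq was done on EX and FC RNA of 9 plasma samples. The authors trimmed the reads with cutadapt 5.0 and Trimmomatic 0.39, checked them with FastQC 0.12.1, mapped them with miRDeep2 to a Japanese Black genome built on an older cattle assembly, and counted them on mature miRNAs of miRBase. They deposited estimated counts per miRNA, in which reads shared by several miRNAs are divided, and a table of CPM values. In 4 FC libraries the lower rows of the count table stood 1 row off the CPM table and were realigned, which touched none of the 4 miRNAs. A count matched its CPM value within a relative tolerance of 0.001 or 0.02 counts.

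Counts were rounded, kept where CPM was > 5 in 3 or more libraries of the fraction, scaled by TMM and fitted in edgeR 4.0.16 (R 4.3.3, limma 3.58.1) with glmQLFit and glmQLFTest. FDR is the Benjamini-Hochberg value over all miRNAs of a comparison, and standard errors come from the F statistic. Ages were compared within a fraction with steer as a block, and fractions with the plasma sample as a block. The study states that all ages are of the same 3 animals. The pairing assumes that a replicate number of the labels marks the same animal at each age and in both fractions. Deviations from group means correlated by 0.023 on average for the same steer across ages in EX and 0.089 in FC (−0.012 and −0.045 for other steers), and by 0.234 for EX and FC of the same plasma (−0.118 for others). The interaction tests were called at FDR < 0.05 alone. No 2 libraries of a group were copies, since in 18 such pairs chi-square divided by its degrees of freedom was at least 196.

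A floor of 3 counts equals 1.08 to 3.03 CPM for EX libraries, against 0.248 to 0.83 CPM for FC, and covers counting error only, since PCR copies carry no molecular identifiers. The most common count of a library is the median of the counts in the fullest of bins, 2 per doubling. With steer as a block, p-values of the age tests measure how much the changes with age differ between these 3 steers. Those of the fraction and interaction tests measure how much the EX to FC difference varies between plasma samples of an age. They take the 9 plasma samples as independent, although these come from 3 steers. The fits were tested on simulated data. Besides the 4 miRNAs, those named are of 7 fixed lists, have a member's seed, or are the 3 nearest in pattern in a fraction. The members and lists were chosen with earlier results of these data known. Alternatives were DESeq2 1.42.0 and its size factors, library totals, 2 other filters, the likelihood ratio test, other blocks, counts as deposited and leaving out each steer. Counts divided by the most common count, and leaving out the plasma of steer 3 at 25 months, were added after seeing the data. Tables and figures used Python 3.11.15, numpy 2.4.6, pandas 2.3.3 and matplotlib 3.10.9. No genome of the mapped build was used here, so no positions are given.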

Additional observations from a re-analysis of the deposited data

Results flagged for a closer look

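The change of *bta-miR-223* with age passed the test of a difference between the fractions, the interaction test of edgeR with the plasma sample as a block. Its EX change minus its FC change was −0.77 from 25 to 30 months (FDR 0.0157) and −0.65 from 20 to 30 months (FDR 0.0253), on the log2 scale. The FDRs were 0.0574 and 0.0532 without the plasma of steer 3 at 25 months, 0.0753 and 0.0617 without steer 2, and 0.558 and 0.615 without the plasma block, and the second was 0.0722 without steer 1. Without steer 2, 0 of 330 miRNAs passed either test. Both were negative in 3 of 3 steers and both comparisons use the same 30 months libraries. The median of this difference over the 330 miRNAs was −0.32 and −0.39, so *bta-miR-223* lay below the table as a whole in both.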

How the results depend on the processing

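Over 32 log2 fold changes of the 4 miRNAs and all alternatives, 370 of 433 values kept direction and side of the threshold, 28 lost a call, 6 gained one and 29 changed sign, all 29 of values that were not called. Limits: 3 steers, EX libraries at 30 months with a high most common count, reads shared by *bta-miR-146a* and *bta-miR-146b*, and a TMM scaling that moves the median of the table. From 25 to 30 months the FDR of *bta-miR-155* ranged over the alternatives from 5.53e-06 to 0.287 in EX and from 0.00217 to 0.235 in FC. For *bta-miR-146a* in FC the range was 0.00473 to 0.182, and for *bta-miR-223* between fractions at 30 months 1.27e-43 to 0.0443. The causes of these moves were not tested.

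In EX from 25 to 30 months, 1 of the 4 was called, and 0 with DESeq2 size factors (FDR of *bta-miR-155* 0.0578), library totals (0.0661), no filter on low counts (0.0562) or CPM > 1 in 3 libraries (0.0543). With counts divided by the most common count 2 were called, *bta-miR-146a* and *bta-miR-155*, and from 20 to 30 months 1 in place of 0, *bta-miR-155*. In FC from 25 to 30 months, 2 were called, 1 with library totals and 0 with the counts as deposited, where *bta-miR-155* had FDR 0.0833 and *bta-miR-146a* 0.0681. In FC from 20 to 30 months, 0 were called, and 1 with no filter on low counts, the likelihood ratio test or DESeq2. Between fractions at 30 months, 1 was called and 0 with library totals.

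Leaving out 1 steer or the plasma of steer 3 at 25 months gave 0 to 1 calls in EX and 0 to 1 in FC from 25 to 30 months, 0 to 1 in FC from 20 to 30 months, and 0 to 1 in each interaction. Over all miRNAs from 25 to 30 months, leaving out a steer gave 0 to 18 calls of 345 in EX, in place of 49. In FC it gave 1 to 54 of 358, in place of 56. The whole table thus lost most calls in EX. In FC the set with 54 calls kept nearly all of them, and *bta-miR-155* was not called in it. Over all these smaller sets the log2 fold change of *bta-miR-223* in EX from 25 to 30 months ranged from −0.68 to 0.25. That of *bta-miR-146b* in FC between the same ages ranged from −0.15 to 0.25. From 20 to 30 months *bta-miR-223* in FC ranged from −0.15 to 0.32. Between fractions at 20 months *bta-miR-146b* ranged from −0.055 to 0.14.

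Without a replicate block, 1 of the 4 was called in FC from 25 to 30 months, *bta-miR-155*, and 0 in either interaction, as with steer as the block in place of the plasma sample (FDR of *bta-miR-223* 0.558 and 0.615, and 0.546 and 0.598). The block changed no other count of calls.

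Of the values that changed sign, *bta-miR-223* in EX from 25 to 30 months became 0.19 with library totals. *bta-miR-146b* in FC became −0.068 with no filter, −0.047 with no block, −0.023 with the counts as deposited and −0.012 with counts divided by the most common count. Between fractions at 20 months it became 0.079 with DESeq2 size factors and with DESeq2, 0.040 with library totals, 0.039 with the counts as deposited, and 0.00034 with no filter. *bta-miR-155* between fractions at 30 months became 0.059 with DESeq2 size factors, 0.062 with DESeq2, 0.25 with library totals, 0.025 with no filter, 0.080 with no block, 0.099 with the steer block, 0.027 with the counts as deposited and 0.0061 with counts divided by the most common count. The interaction of *bta-miR-146a* from 25 to 30 months became −0.083 at CPM > 1, and ranged from −0.36 to 0.20 when samples were left out, as that of *bta-miR-146b* did from −0.16 to 0.93. Over all miRNAs, calls ranged from 0 to 90 in EX (49 in the fit reported) and 1 to 80 in FC (56) from 25 to 30 months, and from 16 to 98 (45) between fractions at 30 months.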
